A study of Mus musculus with 38 samples.

Results

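The genes described are 9 negative feedback regulators of the ERK pathway: the MAP kinase phosphatases *Dusp4*, *Dusp5* and *Dusp6*, the Sprouty genes *Spry1*, *Spry2* and *Spry4*, and the Sprouty-related genes *Spred1*, *Spred2* and *Spred3*. They were taken by gene symbol from the probe annotation, with 1 probe set per gene (the one with the highest mean over all mice), and are 9 of the 19938 genes that could be named on the array. Thyroid RNA of 38 mice was measured on whole-transcript mouse arrays, 1 array per mouse. The mice belonged to a model on FVB/N zygotes in which the bovine thyroglobulin promoter drives human *BRAF* cDNA carrying the V600E substitution in follicular cells. The groups were 5 asymptomatic thyroids without transgene RNA (AT *BRAF*(-), 4 to 12 months of age), 4 benign hyperplastic lesions without it (BHL *BRAF*(-), 6 to 24 months), 5 asymptomatic thyroids with it (AT *BRAF*(+), 7 to 11 months), 4 hyperplastic lesions with it (BHL *BRAF*(+), 4 to 11 months), 10 borderline lesions (BL, 4 to 21 months) and 10 papillary thyroid carcinomas (PTC, 6 to 21 months), the last 2 groups all *BRAF*(+). Each group held females and males, 29 and 9 in all. *BRAF* status was called from RNA, the mice came from several transgenic lines that differ in transgene protein and that the labels do not assign to each mouse, and the *BRAF*(-) mice had been genotyped as non-transgenic apart from a hyperplastic mouse that carried a silent transgene. RNA came from one part of the gland and histology from the remainder, so that a lesion and its RNA are not from the same cells.

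ERK is the last kinase of the RAS, RAF, MEK and ERK cascade, which carries growth factor signals to the nucleus, and the V600E substitution keeps BRAF active without RAS. Active ERK induces the transcription of its own inhibitors, which is why their RNA is widely read as a measure of pathway output. DUSP phosphatases remove the activating phosphates from ERK, whereas Sprouty and SPRED proteins act upstream, between the receptor and RAF, a step that V600E-mutant BRAF does not need.

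Values are signals on the log2 scale after robust multi-array averaging (RMA), so that a difference of 1 is a doubling. A difference is called where the adjusted p from limma, corrected by Benjamini and Hochberg's method over all 35556 probe sets, is under 0.05. Of the marker lists, thyroid follicular genes were high in all groups, with mean log2 signals of 9.91 in AT *BRAF*(-), 9.71 in AT *BRAF*(+), 9.11 in BHL *BRAF*(+) and 9.28 in PTC. The glands also held other tissue. The mean of 17 skeletal muscle genes lay between 5.06 and 5.66 in 29 of the 38 mice. It was higher in the other 9 mice: 1 AT *BRAF*(-) mouse at 9.58, 1 BHL *BRAF*(-) mouse at 9.44, 2 BL mice at 9.04 and 10.28, and 5 PTC mice from 6.30 to 8.61. The mean of 12 macrophage genes ran from 7.23 to 8.18 in AT *BRAF*(-), from 7.65 to 8.92 in AT *BRAF*(+), from 8.11 to 8.72 in BL and from 7.80 to 8.73 in PTC. In whole tissue, fewer cells of a type and less RNA per cell cannot be told apart.

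Promoters of 7 of the 9 genes were taken from RefSeq promoter sequences (GRCm38.p6), which hold 250 bases before and 50 after the start site. Those of *Dusp4* and *Spry4* were left out and not searched. The promoters of 4 genes that rose with *BRAF* status are shown, because the genes moved together and the phosphatase with the largest rise has a pair of elements that is rare among promoters. Capitals mark CArG boxes, the sites of serum response factor, which ERK activates together with its ETS partners.
*Dusp5* (chr19:53528895-53529194, plus strand): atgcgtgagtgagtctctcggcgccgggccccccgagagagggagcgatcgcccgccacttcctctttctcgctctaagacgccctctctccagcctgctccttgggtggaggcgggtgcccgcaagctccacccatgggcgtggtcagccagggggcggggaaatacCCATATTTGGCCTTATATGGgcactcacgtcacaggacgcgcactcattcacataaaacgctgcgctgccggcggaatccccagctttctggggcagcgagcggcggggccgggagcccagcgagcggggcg
*Dusp6* (chr10:99262981-99263280, plus strand): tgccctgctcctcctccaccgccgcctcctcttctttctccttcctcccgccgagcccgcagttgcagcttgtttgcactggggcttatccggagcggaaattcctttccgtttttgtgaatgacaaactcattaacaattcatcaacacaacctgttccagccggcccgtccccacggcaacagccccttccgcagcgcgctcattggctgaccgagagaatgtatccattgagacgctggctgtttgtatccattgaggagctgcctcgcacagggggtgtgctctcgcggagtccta
*Spred1* (chr2:117120821-117121120, plus strand): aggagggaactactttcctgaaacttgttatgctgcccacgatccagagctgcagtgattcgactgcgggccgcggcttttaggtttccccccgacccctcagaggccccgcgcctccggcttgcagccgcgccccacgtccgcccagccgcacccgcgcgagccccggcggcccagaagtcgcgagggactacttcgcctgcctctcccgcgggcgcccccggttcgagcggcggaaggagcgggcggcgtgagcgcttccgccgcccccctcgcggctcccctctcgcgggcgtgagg
*Spred2* (chr11:19924192-19924491, plus strand): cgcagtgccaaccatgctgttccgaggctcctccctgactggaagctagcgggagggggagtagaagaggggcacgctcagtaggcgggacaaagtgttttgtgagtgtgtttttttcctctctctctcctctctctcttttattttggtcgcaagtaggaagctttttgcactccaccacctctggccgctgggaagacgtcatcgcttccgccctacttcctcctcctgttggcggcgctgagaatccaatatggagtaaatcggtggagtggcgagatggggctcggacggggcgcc

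The *Dusp5* promoter held 2 adjoining CArG boxes, starting 82 and 72 bases before the start site. One box or more was found in 1.63% of the 32851 promoters of the same length, and 2 or more in 6 promoters, or 0.0183%. The letters of an AP-1 site (TGANTCA, in 7.81% of promoters), a CRE (TGACGTCA, in 1.79%) and a single form of the ETS site (CCGGAA, in 14.9%) were searched on both strands as well. CCGGAA was found 34 bases after the start of *Spry2*, and no other match to these letters lay in the windows of *Dusp5*, *Dusp6*, *Spry1*, *Spry2*, *Spred1*, *Spred2* or *Spred3*. The ETS core GGAA with other flanking letters, which the printed windows also hold, was not searched for. A match is a string of letters and was not tested as a binding site.

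The first comparison asked which feedback genes differed with *BRAF* status before any malignant change, in the 9 *BRAF*(+) and 9 *BRAF*(-) non-malignant thyroids (AT and BHL). *Dusp4*, *Dusp5*, *Dusp6*, *Spred1* and *Spred2* rose, by 1.40-fold to 2.09-fold, and none of the 9 genes fell. The 3 Sprouty genes and *Spred3* did not pass the test. The 5 calls stand against a background of 4.1% of all probe sets called, 2.19% of them higher and 1.91% lower in *BRAF*(+). The median log2 difference was 0.48 over the 9 genes and 0.02 over all probe sets.

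**Figure D1:**
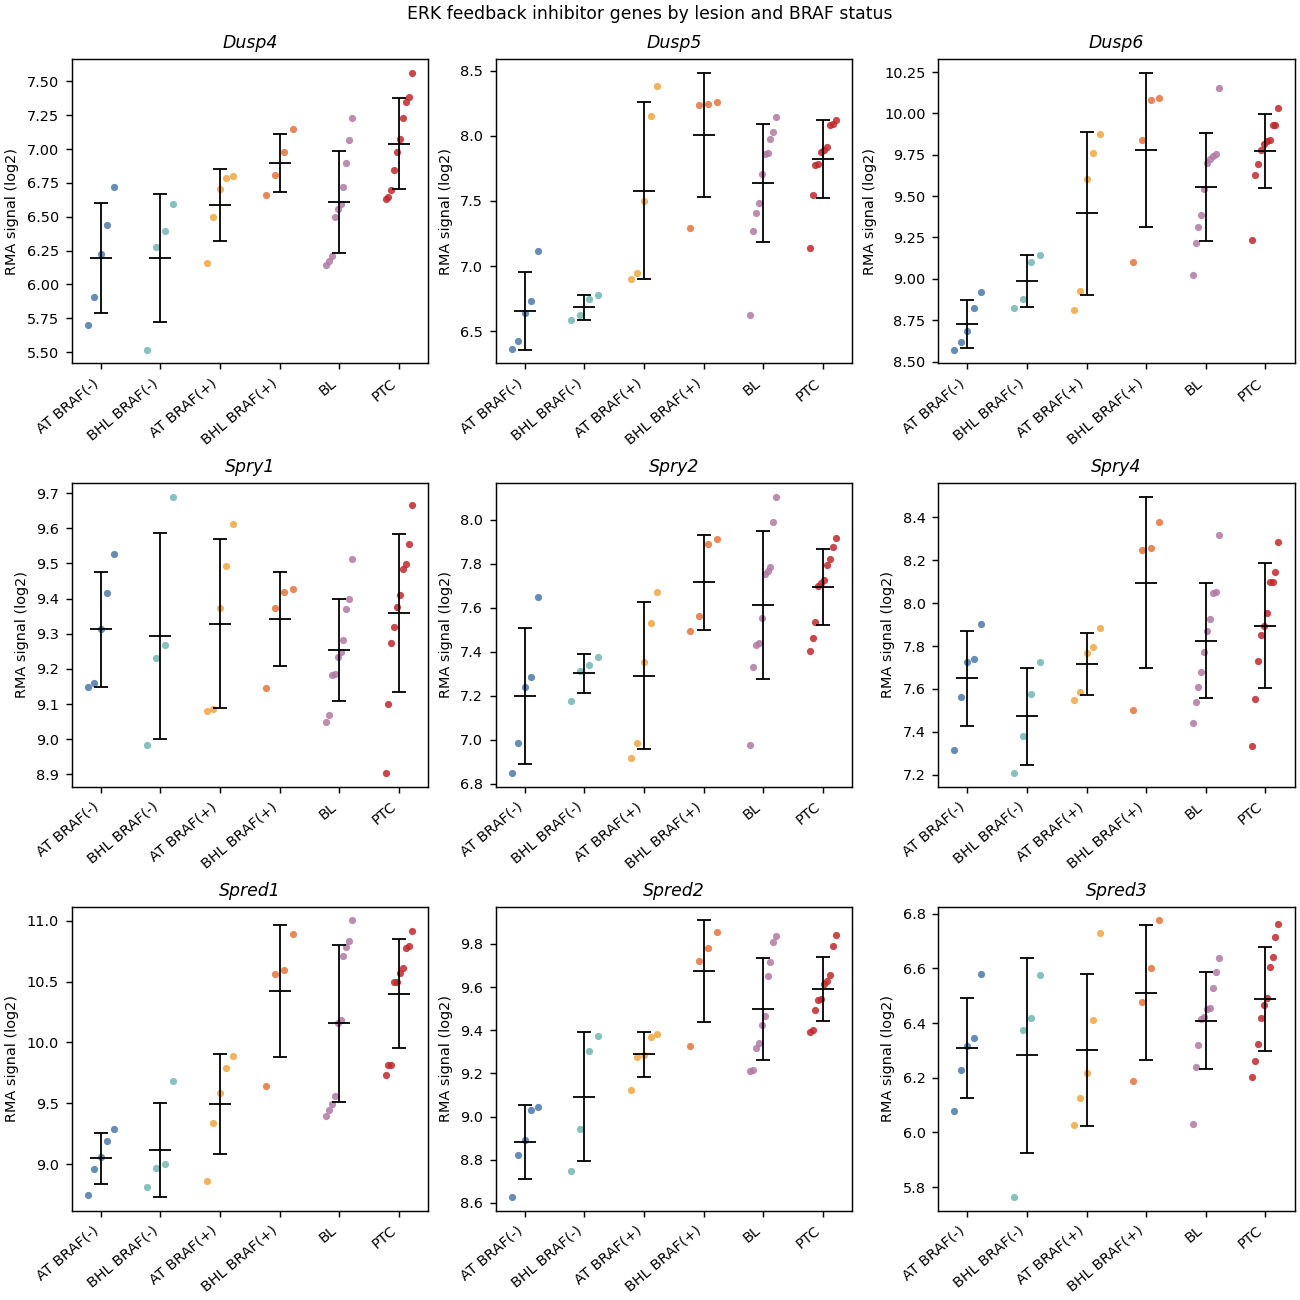
Log2 RMA signal of each of the 9 genes (y axis, scaled per gene) in every mouse of the 6 groups (x axis); points are mice, sorted by value within a group, and bars are the mean and SD. *Dusp5*, *Dusp6*, *Spred1* and *Spred2* lie higher in the *BRAF*(+) groups, BL and PTC, whereas *Spry1* stays between 8.90 and 9.69 in all 38 mice.

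*Dusp5*, a nuclear phosphatase specific for ERK, had the largest difference. Its log2 signals were 7.12, 6.43, 6.73, 6.64 and 6.37 in AT *BRAF*(-) and 6.62, 6.75, 6.58 and 6.78 in BHL *BRAF*(-), against 8.15, 6.95, 6.90, 7.50 and 8.38 in AT *BRAF*(+) and 8.23, 8.26, 7.30 and 8.24 in BHL *BRAF*(+). Of the 9 *BRAF*(+) mice, 7 lay above every *BRAF*(-) mouse, and the remaining 2 were asymptomatic. The log2 difference was 1.07 (standard error 0.19, adjusted p = 0.00447 from limma), or 2.09-fold, and the exact permutation test of ranks gave a two-sided p of 0.0001645.

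*Dusp6* encodes the cytoplasmic ERK phosphatase. Its log2 signals were 8.69, 8.57, 8.92, 8.62 and 8.83 in AT *BRAF*(-), 8.88, 8.83, 9.14 and 9.10 in BHL *BRAF*(-), 9.76, 8.81, 8.92, 9.61 and 9.88 in AT *BRAF*(+), and 10.08, 10.09, 9.10 and 9.84 in BHL *BRAF*(+). The *BRAF*(-) mice lay within a narrow band, while the *BRAF*(+) mice divided into 6 above that band and 3 inside it. Its log2 difference was 0.68 (standard error 0.13, adjusted p = 0.00657 from limma; exact permutation p = 0.00564).

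*Dusp4* encodes a nuclear phosphatase of ERK and other MAP kinases. Its log2 signals were 6.72, 6.22, 5.91, 5.70 and 6.44 in AT *BRAF*(-), 6.59, 5.52, 6.28 and 6.39 in BHL *BRAF*(-), 6.78, 6.50, 6.16, 6.80 and 6.70 in AT *BRAF*(+), and 6.66, 6.98, 7.15 and 6.81 in BHL *BRAF*(+). The groups overlapped, with 5 of 9 *BRAF*(+) mice above all *BRAF*(-) mice. The log2 difference was 0.57 (standard error 0.15, adjusted p = 0.0349 from limma; exact permutation p = 0.00564), and it missed the threshold when any one of 13 of the 18 mice was left out, with adjusted p values of up to 0.0702, and also without covariates, with age added or in females alone.

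*Spred1* encodes a membrane protein that brings the RAS inactivator neurofibromin to the plasma membrane. Its log2 signals were 8.75, 9.19, 9.05, 8.96 and 9.29 in AT *BRAF*(-) and 8.81, 9.68, 9.005 and 8.97 in BHL *BRAF*(-). They were 9.79, 8.86, 9.33, 9.58 and 9.89 in AT *BRAF*(+) and 10.89, 10.56, 9.64 and 10.60 in BHL *BRAF*(+). The highest values were thus in *BRAF*(+) hyperplasia, in 3 of its 4 mice. The log2 difference over both lesion types was 0.77 (standard error 0.17, adjusted p = 0.0172 from limma; exact permutation p = 0.00564).

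*Spred2*, a close relative of *Spred1* with the same action, had log2 signals of 9.05, 9.03, 8.89, 8.63 and 8.82 in AT *BRAF*(-), 9.31, 9.37, 8.75 and 8.94 in BHL *BRAF*(-), 9.28, 9.12, 9.29, 9.37 and 9.38 in AT *BRAF*(+), and 9.86, 9.78, 9.33 and 9.72 in BHL *BRAF*(+). The 5 AT *BRAF*(+) mice lay above the 5 AT *BRAF*(-) mice, and 2 of the BHL *BRAF*(-) mice reached into the *BRAF*(+) range. The log2 difference was 0.48 (standard error 0.10, adjusted p = 0.0115 from limma; exact permutation p = 0.00276). A second probe set of *Spred2* gave 0.57 (standard error 0.17, adjusted p = 0.0739), in the same direction and short of the threshold.

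The Sprouty genes encode inhibitors that bind adaptor proteins and RAF kinases below the receptor. *Spry1* had medians of 9.27 in *BRAF*(-) and 9.37 in *BRAF*(+) thyroids, within ranges of 8.98 to 9.69 and 9.08 to 9.61, and a log2 difference of 0.00 (95% confidence interval -0.19 to 0.19). *Spry2* ran from 6.85 to 7.65, with a median of 7.28, in *BRAF*(-) and from 6.92 to 7.91, with a median of 7.53, in *BRAF*(+) thyroids, and differed by 0.22 (interval -0.04 to 0.47, adjusted p = 0.422 from limma). *Spry4* ran from 7.21 to 7.90 (median 7.58) and from 7.50 to 8.38 (median 7.80), and differed by 0.31 (interval 0.02 to 0.59, adjusted p = 0.256 from limma). *Spred3*, the member of its family without a working c-KIT-binding domain, was at medians of 6.35 and 6.41 and differed by 0.12 (interval -0.12 to 0.37). The upper bounds of these intervals thus ran from 0.19 for *Spry1* to 0.59 for *Spry4*.

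Markers of follicular cells and of other tissue moved with the comparison. Of 9 adipocyte genes 4 were called lower in *BRAF*(+) thyroids, of 5 brown adipocyte genes 1, of 9 follicular genes 2, of 5 airway genes 1, and of 10 fibroblast genes 1 was higher; of the 17 muscle genes, 10 endothelial, 12 macrophage, 7 lymphocyte and 4 C cell or parathyroid genes none was called. With 3 covariates added, the mean signals of the muscle, adipocyte and brown fat lists in each mouse, none of the 9 genes was called. The share of all probe sets called is not given for this fit or the later fits with scores or fewer mice. Their counts are therefore not read as particular to the 9 genes. The log2 differences were then 0.99 (standard error 0.34, adjusted p = 0.318) for *Dusp5*, 0.69 (0.23, adjusted p = 0.292) for *Dusp4* and 0.66 (0.23, adjusted p = 0.319) for *Dusp6*, close to the values above with wider errors, but 0.29 (0.16, adjusted p = 0.591) for *Spred2* and 0.23 (0.24, adjusted p = 0.862) for *Spred1*. With the macrophage score as a covariate in their place, or without the 2 mice high in muscle genes, the same 4 genes were called in each case (*Dusp5*, *Dusp6*, *Spred1* and *Spred2*), and *Dusp4* was not, at 0.46 (adjusted p = 0.156 from limma) and 0.44 (adjusted p = 0.104).

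The second question was whether the difference depended on the lesion, with the 6 groups and sex fitted over the 38 mice. In asymptomatic thyroids none of the 9 genes was called, against 0.256% of all probe sets, although 3 had an unadjusted p under 0.05, against 9.67%: *Dusp5* differed by 0.88 (standard error 0.25, adjusted p = 0.148 from limma), *Dusp6* by 0.61 (0.18, adjusted p = 0.160) and *Spred2* by 0.39 (0.13, adjusted p = 0.236). *Spred2* was the gene whose groups did not overlap, which held for 1.14% of probe sets. The lowest values were those of AT *BRAF*(+) replicates 2 and 3, a male of 10 and a female of 7 months. They were the lowest 2 of the 5 mice for *Dusp4*, *Dusp5*, *Dusp6*, *Spry1*, *Spry2* and *Spred1*, with *Dusp6* at 8.81 and 8.92, where the highest AT *BRAF*(-) mouse was at 8.92. They also had the lowest macrophage scores of the 5, 7.77 and 7.65 against 8.58 to 8.92. Other lists set the same mice apart. Their fibroblast means were the lowest (8.65 and 8.69 against 9.01 to 9.43). Their means were the highest for follicular genes (10.02 and 10.01 against 9.28 to 9.81) and for C cell or parathyroid genes (6.67 and 6.56 against 5.04 to 5.65). The part of tissue makeup in their low values was not tested. In the fit with the macrophage score as a covariate, *Dusp5* differed by 0.72 (adjusted p = 0.350 from limma). *Dusp6* differed by 0.48 (adjusted p = 0.374) and *Spred2* by 0.48 (adjusted p = 0.177) in that fit. Without replicate 3, *Dusp5* (adjusted p = 0.0370) and *Dusp6* (adjusted p = 0.0381) passed the threshold.

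In hyperplastic lesions 5 genes rose, against 6.62% of probe sets called and 2.98% called higher. *Dusp5* differed by 1.32 (standard error 0.28, adjusted p = 0.00297 from limma), *Spred1* by 1.30 (0.27, adjusted p = 0.00218), *Dusp6* by 0.79 (0.20, adjusted p = 0.0118), *Spry4* by 0.62 (0.18, adjusted p = 0.0332) and *Spred2* by 0.58 (0.14, adjusted p = 0.0100). *Dusp4* (0.70, adjusted p = 0.0782) and *Spry2* (0.41, adjusted p = 0.160) did not pass, but with *Dusp5* they were the 3 genes whose 4 *BRAF*(+) mice all lay above the 4 *BRAF*(-) mice, as did 5.16% of probe sets. *Spry4* was at 8.26, 8.25, 7.50 and 8.38 in BHL *BRAF*(+) and at 7.58, 7.72, 7.38 and 7.21 in BHL *BRAF*(-), and its call was lost without BHL *BRAF*(+) replicate 1, 2 or 4 or BHL *BRAF*(-) replicate 3 or 4, and with arrays centred on their medians, with array weights or with age added. The call of *Dusp6* was lost without BHL *BRAF*(+) replicate 2 (adjusted p = 0.0516), and without the mice high in muscle genes (adjusted p = 0.0740), and that of *Spred2* without BHL *BRAF*(-) replicate 3 (adjusted p = 0.0754). Of the marker lists, 4 of 5 brown adipocyte, 3 of 9 follicular, 1 of 9 adipocyte and 1 of 5 airway genes were called lower in this comparison. In the fibroblast list 1 of 10 genes was called higher, and no macrophage gene was called. With the marker scores as covariates none of the 5 feedback genes was called. Their log2 differences were then 0.82 for *Dusp5*, 0.76 for *Spred1*, 0.42 for *Dusp6*, 0.26 for *Spry4* and 0.24 for *Spred2*. With the macrophage score as the covariate the same 5 were called.

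The test of the difference between lesion types called none of the 9 genes, against 0.0281% of probe sets, while 2 of them had an unadjusted p under 0.05, against 8.4%. For *Spred1* the *BRAF* difference in hyperplasia exceeded that in asymptomatic thyroids by 0.97 (standard error 0.27, unadjusted p = 0.00241, adjusted p = 0.287 from limma), and for *Spry4* by 0.58 (0.24, unadjusted p = 0.0285, adjusted p = 0.514). For *Dusp5* and *Dusp6* the excess was 0.47 (interval -0.34 to 1.28) and 0.21 (interval -0.35 to 0.76). Hyperplasia without transgene RNA was compared with AT *BRAF*(-) too. No probe set was called there by limma, and 4.4% had an unadjusted p under 0.05, none of them for the 9 genes, whose log2 differences ran from -0.20 for *Spry4* to 0.22 for *Dusp6*.

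**Figure D2:**
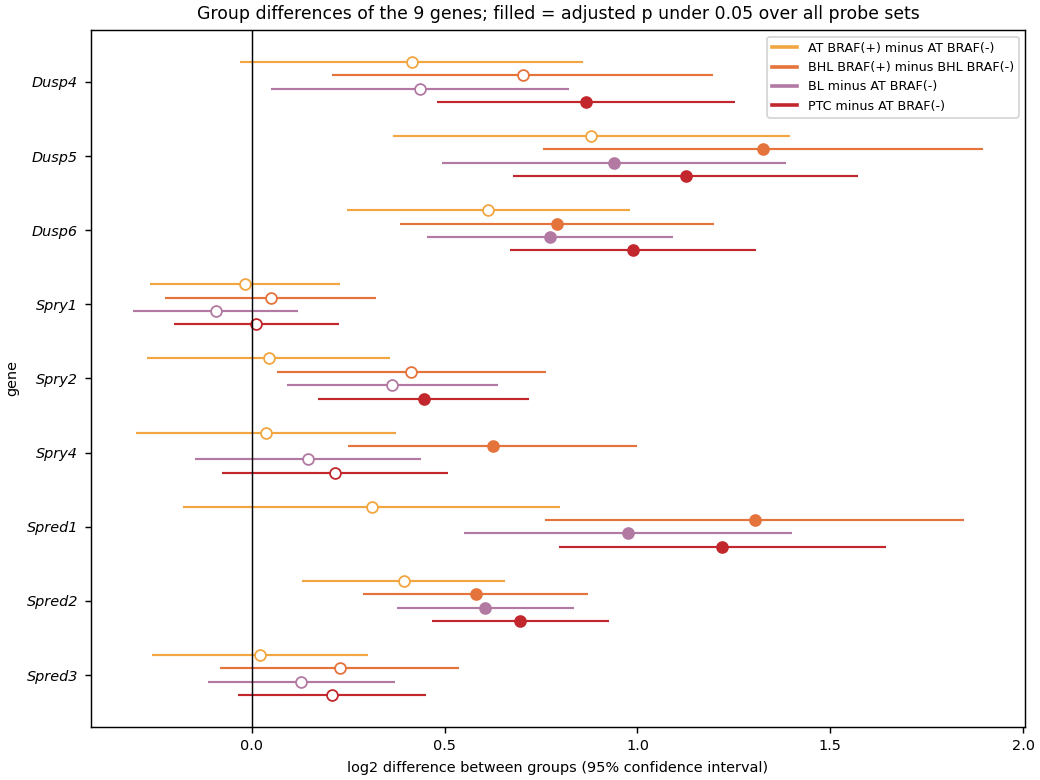
Log2 difference (x axis, with 95% confidence interval) of each gene (y axis) in 4 comparisons, shown by colour; filled points have an adjusted p under 0.05 over all 35556 probe sets. The AT *BRAF*(-) mice are the control of 3 of the 4 comparisons. The intervals of *Spry1* all include 0, and those of *Dusp5*, *Dusp6* and *Spred2* all lie above it.

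Borderline lesions and carcinomas were then set against AT *BRAF*(-), which both comparisons share as control. In borderline lesions *Dusp5*, *Dusp6*, *Spred1* and *Spred2* rose, 4 of 9 against 11.5% of probe sets called and 6.05% called higher. In carcinomas 6 of 9 rose, namely these 4, *Dusp4* and *Spry2*, against 18.8% called and 9.8% called higher. Markers of follicular and other cells moved in the same comparisons. In BL 5 of 12 macrophage genes were called higher, and 6 of 9 adipocyte, 2 of 5 brown adipocyte and 1 of 9 follicular genes lower. In PTC 8 of 12 macrophage genes were called higher, and 7 of 9 adipocyte, 5 of 5 brown adipocyte and 5 of 9 follicular genes lower. There, 1 of 10 fibroblast genes was also higher, and 1 of 10 endothelial, 1 of 5 airway and 1 of 4 C cell or parathyroid genes lower. *Dusp6* had a median of 9.62 in BL (range 9.02 to 10.15) and of 9.82 in PTC (range 9.23 to 10.04), so that every borderline lesion and carcinoma lay above the highest AT *BRAF*(-) mouse at 8.92. Its log2 differences were 0.77 (standard error 0.16, adjusted p = 0.00179 from limma) and 0.99 (0.16, adjusted p = 4.80e-05).
*Dusp5* had a median of 7.78 in BL (range 6.63 to 8.14) and of 7.88 in PTC (range 7.14 to 8.12), with log2 differences of 0.94 (standard error 0.22, adjusted p = 0.00566 from limma) and 1.12 (0.22, adjusted p = 0.000543). A single borderline lesion, replicate 8, fell inside the AT *BRAF*(-) range. *Dusp4* had a median of 6.57 in BL (range 6.15 to 7.23) and of 7.03 in PTC (range 6.63 to 7.56); it differed by 0.44 in BL (adjusted p = 0.129) and by 0.87 in PTC (standard error 0.19, adjusted p = 0.00170).

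*Spred1* had a median of 10.17 in BL (range 9.40 to 11.00) and of 10.53 in PTC (range 9.73 to 10.92), above all AT *BRAF*(-) mice in both. Its log2 differences were 0.98 (standard error 0.21, adjusted p = 0.00277 from limma) and 1.22 (0.21, adjusted p = 0.000125), the largest of the 9 in either lesion. Its values were also uneven: in PTC 3 mice lay between 9.73 and 9.81 and the other 7 between 10.49 and 10.92. The 3 lower mice were both males and a female, 6 or 7 months old, and the others were females of 11 to 21 months; the part of age and sex in the gap was not tested, and by the study's cohort description the youngest carcinomas came from another line than the rest. *Spred2* had medians of 9.45 in BL (range 9.21 to 9.84) and 9.58 in PTC (range 9.39 to 9.84), again above all AT *BRAF*(-) mice, with log2 differences of 0.61 (0.11, adjusted p = 0.000702) and 0.70 (0.11, adjusted p = 5.85e-05). Groups without overlap were seen for 3 genes in BL (*Dusp6*, *Spred1* and *Spred2*; 1.7% of probe sets) and for these and *Dusp5* in PTC (2.77%).

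*Spry2* had a median of 7.65 in BL (range 6.98 to 8.10) and of 7.72 in PTC (range 7.40 to 7.92). It differed by 0.36 in BL (adjusted p = 0.0715 from limma) and by 0.45 in PTC (standard error 0.14, adjusted p = 0.0188), a call that was lost without AT *BRAF*(-) replicate 4 (adjusted p = 0.107) and in females alone. *Spry1* was at medians of 9.24 and 9.39, *Spry4* at 7.82 and 7.92, and *Spred3* at 6.44 and 6.48, and none of these 3 was called in either lesion. *Spry1* differed by -0.09 (interval -0.31 to 0.12) in BL and by 0.01 (interval -0.20 to 0.23) in PTC. With the marker scores as covariates none of the 9 genes was called in BL, while 4 were in PTC: *Dusp4*, *Dusp6*, *Spred1* and *Spred2*. The log2 differences in BL were then 0.61 for *Dusp5*, 0.54 for *Dusp6*, 0.60 for *Spred1* and 0.37 for *Spred2*. With the macrophage score as the covariate, *Dusp6*, *Spred1* and *Spred2* were called in BL, and these 3 with *Dusp4* and *Dusp5* in PTC; *Dusp5* in BL (adjusted p = 0.0502 from limma) and *Spry2* in PTC (adjusted p = 0.124) were not. Without the 9 mice high in muscle genes the calls were *Dusp6*, *Spred1* and *Spred2* in BL and these 3 with *Dusp5* in PTC, where *Dusp4* had an adjusted p of 0.0517 from limma.

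The third question was whether the feedback genes differed among thyroids that all had transgene RNA. A moderated F test over AT *BRAF*(+), BHL *BRAF*(+), BL and PTC called *Spred1* (F = 7.36, adjusted p = 0.0308 from limma) and none of the other 8 genes, against 3.92% of probe sets, and the call was lost without AT *BRAF*(+) replicate 2, 3, 4 or 5 and without the 9 mice high in muscle genes. Between PTC and BL no probe set was called by limma and 2.18% had an unadjusted p under 0.05, among them *Dusp4*, which was higher in PTC by 0.43 (interval 0.12 to 0.74, unadjusted p = 0.00832). The intervals of the other 8 genes included 0; that of *Dusp6* was -0.04 to 0.47 and that of *Spred1* was -0.10 to 0.59.
Against AT *BRAF*(+), carcinomas were higher for *Spred1*, by 0.91 (standard error 0.21, adjusted p = 0.00527 from limma), and *Spry2*, by 0.40 (0.13, adjusted p = 0.0380), with 14.9% of probe sets called and 8.49% called higher; *Spry2* lost its call without any one of 8 of the 15 mice. Without the mice high in muscle genes, 5 of them carcinomas, neither was called: *Spred1* differed by 0.71 (adjusted p = 0.0907 from limma) and *Spry2* by 0.30 (adjusted p = 0.257). In this comparison 2 of 5 brown adipocyte, 3 of 9 follicular and 1 of 5 airway genes were called lower. *Spred2* (0.30, adjusted p = 0.0602), *Dusp6* (0.38, adjusted p = 0.0921) and *Dusp4* (0.45, adjusted p = 0.0940) did not pass. For *Spred2* all 10 carcinomas lay above the 5 AT *BRAF*(+) mice, as did 2.46% of probe sets. It passed with the macrophage score (0.33, adjusted p = 0.0368 from limma) but not with the muscle and fat scores (0.09, adjusted p = 0.568). No gene was called between BL and AT *BRAF*(+) (3.57% of probe sets called) or between BHL *BRAF*(+) and AT *BRAF*(+) (0.045%), where *Spred1* differed by 0.67 (adjusted p = 0.0588) and 0.96 (adjusted p = 0.0649); with the macrophage score *Spred1* passed in the latter (adjusted p = 0.0496 from limma).

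The order of the group means was the same for *Dusp5*, *Dusp6*, *Spred1* and *Spred2*: AT *BRAF*(-), BHL *BRAF*(-), AT *BRAF*(+), BL, PTC and BHL *BRAF*(+), from low to high. None of the 45 pairs of neighbours in the orders of the 9 genes differed at an adjusted p under 0.05. The smallest unadjusted p values were those of the step from BHL *BRAF*(-) to AT *BRAF*(+) for *Dusp5* (p = 0.00215, adjusted p = 0.220 from limma) and from AT *BRAF*(+) to BL for *Spred1* (p = 0.00286, adjusted p = 0.0588). *Dusp4* and *Spry1* differed from this order in having their highest mean in PTC, at 7.04 and 9.36.

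The *Braf* probe set was higher with *BRAF* status, by 0.50 in non-malignant thyroids (standard error 0.12, adjusted p = 0.0222 from limma) and by 0.83 in hyperplasia (0.17, adjusted p = 0.00257). In asymptomatic thyroids the probe set differed by 0.22 (interval -0.10 to 0.54, adjusted p = 0.709 from limma) and was not called. Its log2 signal ran from 8.78 to 9.33 in *BRAF*(-) mice and from 9.19 to 10.33 in *BRAF*(+) mice. Whether it reads the human transgene, the mouse gene or both was not tested. The study's cohort description puts its youngest carcinomas in the line with the most protein. Its age classes of the older carcinomas differ from the ages in the labels. The carcinomas of mice 6 or 7 months old had the 3 lowest *Braf* signals of the 10, at 9.50, 9.58 and 9.74. The labels give no line, so it was not a term in any fit, and line and age cannot be told apart in these carcinomas. The 9 genes were set against *Braf* signal in the 29 *BRAF*(+) mice, 9 relations in each of the sets of mice named below, with p values from 100000 permutations. The share of all genes that reach such coefficients with *Braf* was not worked out.
*Spred2* and *Spred1* followed *Braf* most closely, with Pearson's r of 0.897 and 0.887 and Spearman's rho of 0.870 and 0.867 (permutation p = 1e-05 for each, the smallest these permutations can give). Without the 2 mice farthest from the median *Braf* signal r was 0.881 and 0.880. *Spry2* followed with r = 0.757 (rho = 0.779, permutation p = 1e-05 for both; r = 0.717 without the 2 mice), and had not been called with *BRAF* status in non-malignant thyroids. Then came *Dusp6* (r = 0.677, permutation p = 3e-05; rho = 0.669, permutation p = 0.00017), *Dusp4* (r = 0.626, permutation p = 0.00032; rho = 0.602, permutation p = 0.00059), *Dusp5* (r = 0.569, permutation p = 0.00115; rho = 0.530, permutation p = 0.00328) and *Spry4* (r = 0.542, permutation p = 0.00235; rho = 0.534, permutation p = 0.00309). Without the 2 mice their r was 0.650, 0.502, 0.583 and 0.658. *Spry1* (r = 0.144, permutation p = 0.458; rho = 0.194, permutation p = 0.311; 0.272 without the 2 mice) and *Spred3* (r = 0.291, permutation p = 0.126; rho = 0.284, permutation p = 0.136; 0.236) had the lowest coefficients.

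**Figure D3:**
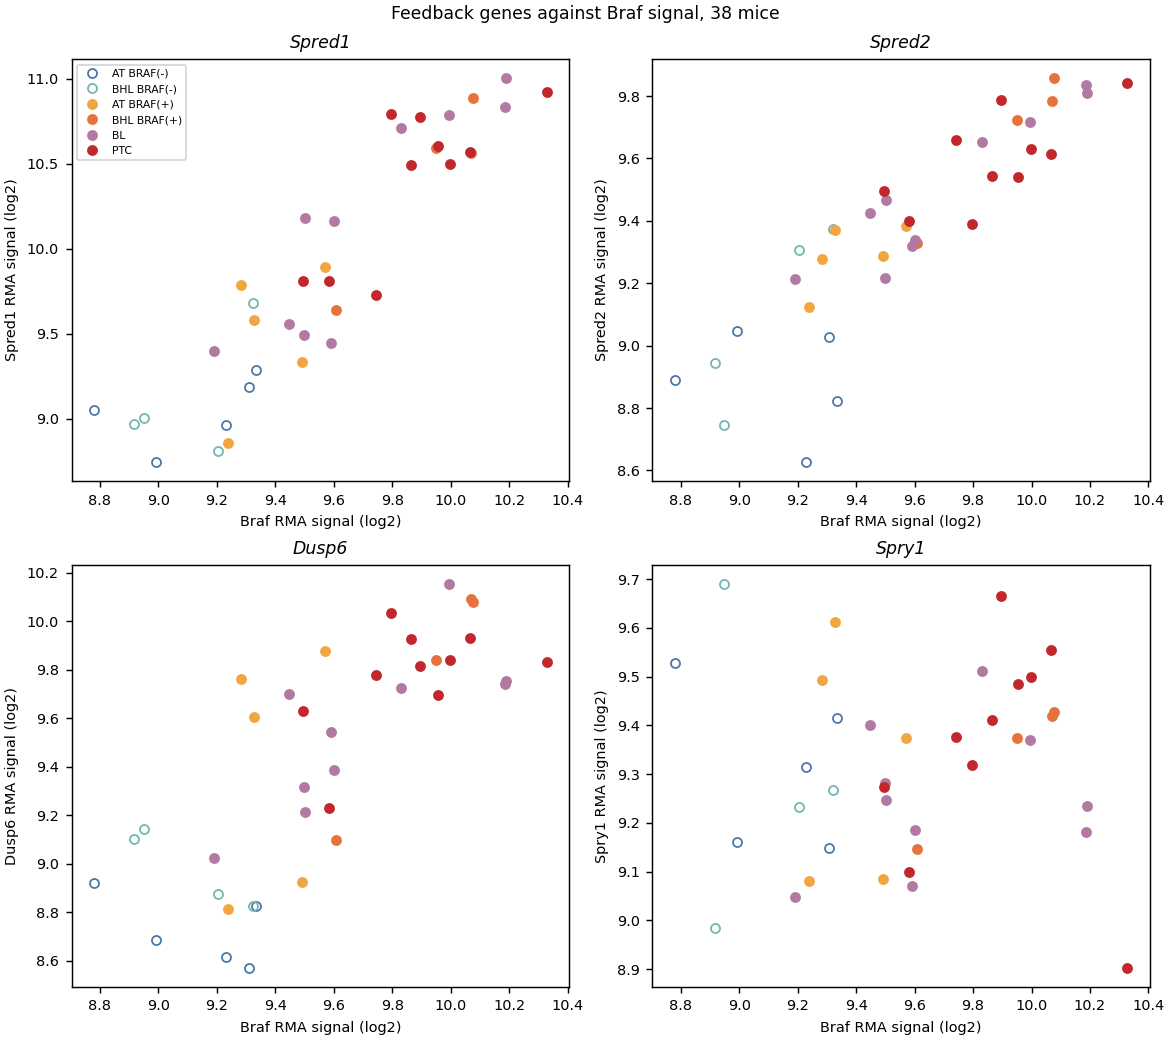
Log2 RMA signal of *Spred1*, *Spred2*, *Dusp6* and *Spry1* (y axes) against that of *Braf* (x axes) in all 38 mice, coloured by group; open circles are *BRAF*(-) mice, which did not enter the correlations. In the 29 *BRAF*(+) mice r is 0.887 for *Spred1*, 0.897 for *Spred2*, 0.677 for *Dusp6* and 0.144 for *Spry1*.

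After centring on group means the coefficients of these 7 genes were lower, whereas in borderline lesions alone they were higher. With each gene and *Braf* centred on the group means, r was 0.851 for *Spred2*, 0.839 for *Spred1*, 0.670 for *Spry2*, 0.602 for *Dusp6*, 0.550 for *Dusp4*, 0.537 for *Dusp5* and 0.468 for *Spry4* over the 29 mice (permutation p from 1e-05 to 0.01015), and without the 2 farthest mice 0.812 for *Spred2* and 0.800 for *Spred1*. After removal of the part that follows the muscle and fat scores within groups as well, r was 0.754 for *Spred2*, 0.750 for *Spred1*, 0.564 for *Spry2*, 0.509 for *Dusp4*, 0.417 for *Dusp6*, 0.320 for *Dusp5* (permutation p = 0.0908) and 0.213 for *Spry4* (permutation p = 0.265). In the 10 borderline lesions alone r was 0.928 for *Spred2* (permutation p = 0.00023; rho = 0.855, permutation p = 0.0028) and 0.898 for *Spred1* (permutation p = 0.00051; rho = 0.891, permutation p = 0.00118), and in the 10 carcinomas alone 0.694 (permutation p = 0.0256; rho = 0.600, permutation p = 0.0720) and 0.785 (permutation p = 0.0053; rho = 0.661, permutation p = 0.0436). Without the 2 mice farthest from the median *Braf* signal these were 0.848 and 0.840 in BL and 0.492 and 0.674 in PTC. For *Spry1* and *Spry4* in carcinomas the absence of a relation (r = -0.06, permutation p = 0.880; r = 0.06, permutation p = 0.869) rested on the 2 mice farthest from the median, without which r was 0.836 and 0.933; one of them, PTC replicate 1, had the highest *Braf* signal of all mice (10.33) and the lowest *Spry1* (8.90).

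Among the members themselves, the 36 pairs were correlated over the 38 mice after centring on group means, as a description, since they share arrays, tissue makeup and RNA. The coefficient was above 0 in 31 pairs, with a median of 0.41. *Dusp5* and *Dusp6* formed the closest pair (r = 0.80), ahead of *Spry2* with *Spred1* (0.74), *Spry2* with *Dusp6* (0.72) and *Spred1* with *Spred2* (0.69). *Spred3* stood apart, with coefficients from -0.25 with *Spry1* to 0.31 with *Dusp4*.

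**Figure D4:**
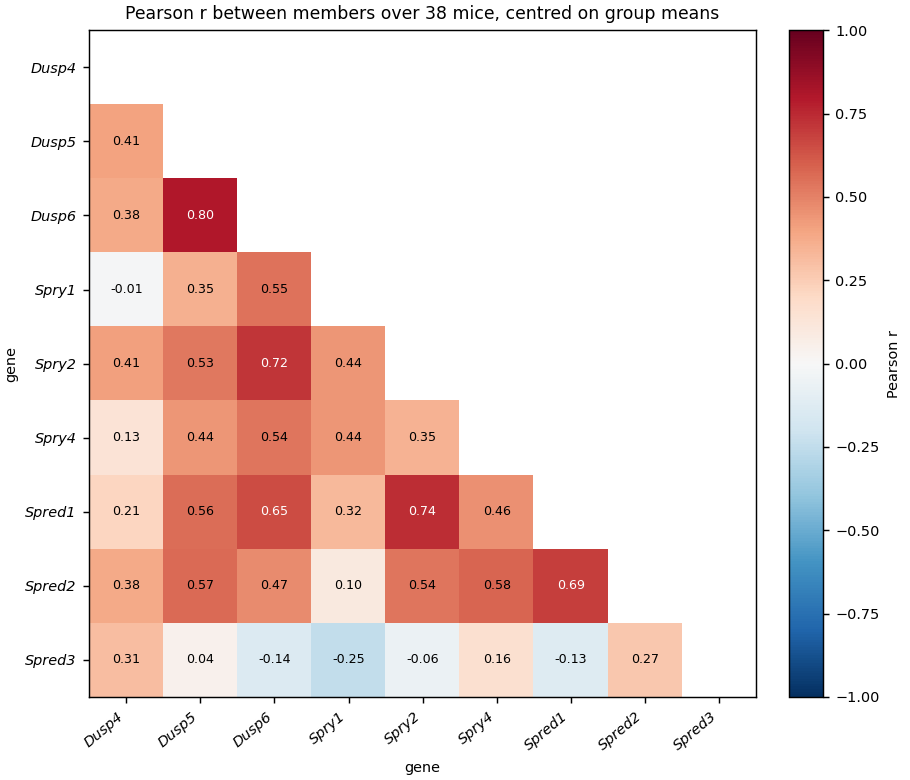
Pearson's r between each pair of the 9 genes (both axes) over 38 mice, with every value centred on its group mean; colour runs from -1 (blue) to 1 (red). *Dusp5* with *Dusp6* is highest at 0.80, and the row of *Spred3* is the palest, with a low of -0.25 with *Spry1*.

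Genes with the most similar pattern were taken from 19929 other named genes by Pearson's r over the 38 mice, differences between groups included. *Dusp6* was nearest to *Dusp2* (r = 0.944), another phosphatase of ERK, *Mical1* (0.918) and *Gramd4* (0.918). *Dusp5* was nearest to *Ereg* (0.932), which encodes the EGF receptor ligand epiregulin, *Syne4* (0.915) and *Gramd4* (0.912). *Spred1* was nearest to *Col9a1* (0.959), a collagen chain, *Flvcr1* (0.957) and *Hmga2* (0.945), a chromatin protein of embryonic and tumour cells. *Spred2* was nearest to *Igf1r* (0.908), the receptor of insulin-like growth factor, *Taok3* (0.905) and *Efnb2* (0.904). *Dusp4* (*Galnt12*, 0.841), *Spry2* (*Bnipl*, 0.851), *Spry4* (*Col4a2*, 0.816) and *Spry1* (*Mxra7*, 0.767) had less close neighbours, and *Spred3* the least close (*Kdm3b*, 0.646).

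The pathway around the 9 genes was read through 4 lists in the non-malignant comparison, against the same background of 4.1% called. Of 14 transcription factors and other outputs of ERK, 5 rose and none fell, with a median log2 difference of 0.38. They were led by *Ccnd1* (cyclin D1, 1.29, standard error 0.24, adjusted p = 0.00530 from limma), *Egr1* (1.22, 0.17, adjusted p = 0.000757), *Etv1* (1.13, 0.19, adjusted p = 0.00260) and *Plaur* (the urokinase receptor, 0.94, 0.16, adjusted p = 0.00287). Of 10 other MAP kinase phosphatases, *Dusp2* rose, by 1.07 (0.20, adjusted p = 0.00504), and the other 9 were not called, with a list median of 0.07. Of the cascade itself, 12 of 18 genes had a probe set of their own, and *Braf* was the gene called, with a median of 0.01 over the 12. Of 14 other inhibitors of receptors and RAS, 4 rose and 1 fell, with a median of 0.31. These included *Socs3* (an inhibitor of cytokine receptors, 0.79, 0.13, adjusted p = 0.00242), *Il17rd* (an inhibitor of FGF receptors also called Sef, 0.74, 0.09, adjusted p = 0.000134) and *Rasa2* (a GTPase activator of RAS, 0.64, 0.15, adjusted p = 0.0244), while *Lrig1*, which lowers ErbB receptors, fell by 0.47 (0.11, adjusted p = 0.0260).

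**Figure D5:**
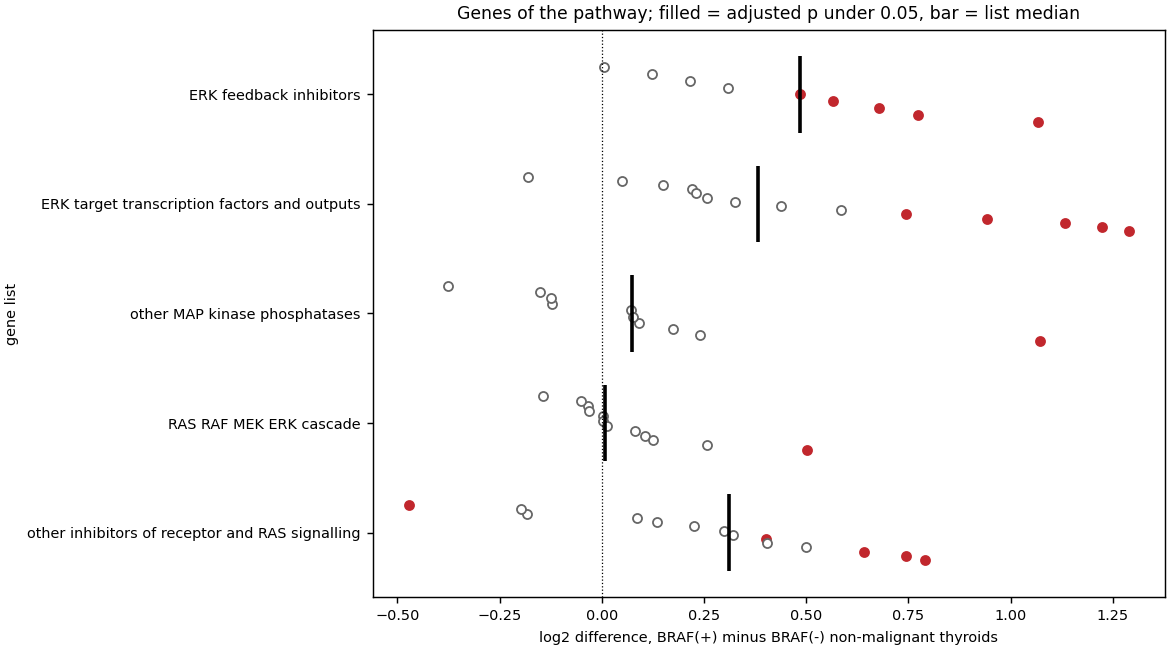
Log2 difference between *BRAF*(+) and *BRAF*(-) non-malignant thyroids (x axis) of the 9 feedback inhibitors and of the measured genes of 4 further lists (y axis); each point is a gene, filled where the adjusted p is under 0.05, and black bars are list medians. The medians are 0.48 for the feedback inhibitors, 0.38 for the outputs, 0.07 for other phosphatases, 0.01 for the cascade and 0.31 for other inhibitors.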

How the data were processed

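Per the labels, total RNA of mouse thyroids was labelled with biotin and hybridised to GeneChip Mouse Gene 1.0 ST arrays. The authors deposited log2 signals made by RMA, a method that equalizes probe distributions between arrays; its version is not given in the sources used here. Array medians ran from 6.00 to 6.15; the number of arrays limits precision, and depth is not defined. Gene symbols came from the platform annotation: 21789 probe sets had 1 symbol, 1621 several (not named) and 12146 none. Lesion, *BRAF* status, sex and age came from the labels. Replicates are separate mice.

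Fits were made with limma 3.58.1 in R 4.3.3 (lmFit, eBayes) over all 35556 probe sets, with Benjamini-Hochberg adjustment, and were tested on simulated data. Non-malignant thyroids (18 mice) were modelled by *BRAF* status, lesion and sex; other comparisons used 6 groups and sex over 38 mice. The filter of the study's methods (at least 1.5-fold from the median in 20% of mice; 4388 probe sets, 3 of the 9 genes) was an alternative, as were array centring, an intensity trend, array weights, no covariate, age, marker scores, females, only the groups compared and leaving out each mouse. Removing the marker scores from the relations to *Braf*, the macrophage score as a covariate and leaving out the 9 mice with a mean muscle signal above 6 were chosen after seeing the data. Permutations and figures used Python 3.11.15, numpy 2.4.6, scipy 1.17.1 and matplotlib 3.10.9. All 9 genes, *Braf*, at most 4 called genes of a list and 3 genes most like each member were to be named. The members, the lists and the question of *Braf* signal were chosen with earlier results of these data known. The human cohorts were not analysed here.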

Additional observations from a re-analysis of the deposited data

Results flagged for a closer look

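Within groups of 4 to 10 mice, 3 of 60 sets of values (the 9 genes and *Braf* in 6 groups) held a mouse far from the others, and chance gives about 1 in 20. In BHL *BRAF*(+), replicate 3, a male of 4 months and the youngest of its group, was lowest for *Dusp5* at 7.30 (next 8.23) and for *Spry4* at 7.50 (next 8.25). Its mean of the brown adipocyte genes was 9.60, against 5.86 to 6.14 in the others of its group. Its adipocyte mean (9.19 against 7.90 to 8.37) and follicular mean (9.51 against 8.90 to 9.07) were also the highest of the group. Its fibroblast mean was the lowest (8.34 against 9.18 to 9.77). The part of tissue makeup, age and sex in its low values was not tested. Without this mouse the *BRAF* difference in hyperplasia still called 5 of the 9 genes. In PTC, replicate 9, a male of 6 months and the youngest of its group, was lowest for *Dusp6* at 9.23 (next 9.63).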

How the results depend on the processing

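Values are the number of the 9 genes called. The share of all probe sets called under each alternative is not given beside them, so a changed number is not read as particular to these genes. With the flat filter, *Dusp5*, *Dusp6* and *Spred1* alone could be tested. The filter keeps probe sets by their variation over the same mice, differences between groups included. Its counts are therefore no separate test of the calls. The number called was then 3 in the non-malignant comparison, 3 in BHL and 3 in PTC minus AT *BRAF*(-). It was 1 in PTC minus AT *BRAF*(+) and 1 in BHL *BRAF*(+) minus AT *BRAF*(+). With muscle and fat scores it was 0 in the non-malignant comparison, BHL, BL minus AT *BRAF*(-), PTC minus AT *BRAF*(+) and the F test. PTC minus AT *BRAF*(+) gave 1 with arrays centred, with array weights, with no covariate and in females. The F test gave 0 with no covariate and in females. Array weights gave 2 in AT; fits of only the groups compared gave 3 in BHL and 1 in BHL *BRAF*(+) minus AT *BRAF*(+). Leaving out 1 mouse gave 4 to 5 in the non-malignant comparison, 0 to 2 in AT, 3 to 5 in BHL, 4 to 5 in BL and 5 to 6 in PTC against AT *BRAF*(-), 1 to 2 in PTC and 0 to 2 in BL against AT *BRAF*(+), and 0 to 1 in the F test. BL gave calls against AT *BRAF*(+) without BL replicate 4 (*Spry2*, *Spred1*) or 8 (*Spred1*). Without the mice high in muscle genes it was 0 in PTC minus AT *BRAF*(+) and the F test, and with the macrophage score 1 in BHL *BRAF*(+) minus AT *BRAF*(+). The cause of these changes was not tested. *Dusp4* kept its non-malignant call without AT *BRAF*(+) replicate 2 or 3, AT *BRAF*(-) replicate 1 or 5 or BHL *BRAF*(-) replicate 4, and lost it without any other mouse. *Spry1*, at 0.00, turned to -0.019 with arrays centred and ran from -0.054 to 0.053 without 1 mouse; *Spry4* turned to -0.028 with the scores. With the macrophage score *Spry1* turned to -0.011. Over all comparisons each of 11 alternatives turned 0 to 12 of up to 99 values, the most with the scores (such as *Dusp5* in BL minus AT *BRAF*(+), from 0.06 to -0.16), and leaving out 1 mouse turned 58 of 1368; 0 of these values were called before or after. No paired analysis was possible because mouse numbers are not shared between groups.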
